A study of Caenorhabditis elegans with 12 samples.

Results

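The subject of this report is the interaction between the 5MER peptide and RNA interference (RNAi) against Aβ in the nematode Caenorhabditis elegans, that is, how far the effect of the peptide on the level of each gene differed between worms with high and worms with low Aβ expression. All 12 of 12 libraries and all 19089 of 19089 genes entered. The interaction of a gene was taken as (EVPS − EV0S) − (ABPS − AB0S), where each group name stands for its mean log2(value + 1) and any value below 0 was first set to 0. An interaction above 0 means that the change with the peptide was more positive, or less negative, at high than at low Aβ, and one unit on this scale is a factor of 2. In all 4 groups the worms were of strain CL2006, which expresses human Aβ in the body wall muscle from the *unc-54* promoter and carries the *rol-6* marker plasmid pRF4. The labels give the genotype of the EV groups as "WT" and that of the AB groups as "AB RNAi", although both carry the transgene. EV0S worms were grown on bacteria with the empty RNAi vector (EV) and soaked in M9 buffer, and EVPS worms were grown on EV and treated with the peptide. AB0S worms had bacteria with the Aβ RNAi construct (AB) as their food and were soaked in M9 buffer, and ABPS worms had the same bacteria and treated with the peptide. Every group was the second generation on its bacteria, received M9 or peptide from day 1 of adulthood onwards every day, and was harvested at day 6 as a pool of whole worms, with 3 libraries per group. The Aβ transgene itself was not analysed here, so high and low Aβ are used as the names of the EV and AB groups.

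Aβ is the aggregation-prone peptide that accumulates in the brain in Alzheimer's disease, and its expression in worm muscle leads to progressive paralysis with age. The 5MER peptide is a short synthetic peptide that was given to such worms to test for protection from this toxicity. In a design with both factors, an effect of the peptide that is independent of Aβ gives an interaction of 0, whereas a gene that responds to the peptide only where Aβ is abundant, or responds in opposite directions, gives an interaction different from 0. An adult hermaphrodite carries a large germline that makes oocytes, a store of sperm made before adulthood, and embryos in the uterus, besides the intestine, the muscle, the nerve cells and the epidermis (hypodermis) that secretes the collagen cuticle. In libraries from whole worms, fewer cells of one type and less RNA per cell cannot be told apart.

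Certain libraries stood apart before any test was made. On the first principal component of the 15516 genes whose values averaged 10 or more, which held 54.5% of the variance, EV0S replicates 1 and 2 lay at −36.77 and −33.94 whereas EV0S replicate 3 lay at 25.05, close to the AB0S libraries at 44.86, 36.67 and 36.13. The ABPS libraries were spread from −24.19 in replicate 3 through −3.97 in replicate 1 to 26.29 in replicate 2, and the EVPS libraries lay together between −25 and −21.86. The values summed to between 24082771 per library, in EV0S replicate 3, and 29142841. Sperm markers differed between these libraries, since the summed value of 17 such genes ran from 4781 to 11580 in EV0S, from 7137 to 10093 in EVPS, from 3397 to 3831 in AB0S and from 4222 to 11530 in ABPS. No marker of the 8 cell types examined was listed at 0 in any library. For these reasons the counts of calls for most gene lists are also given without EV0S replicate 3. These counts are to be read against the shares of all genes called in that fit, 10.3% above 0 and 15.4% below 0.

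The interaction passed an adjusted p below 0.1 in limma's moderated test in 569 of 19089 genes (2.98%), of which 453 (2.37%) lay above 0 and 116 (0.608%) lay below 0. None of these adjusted p-values was under 0.0545, so all of them stood close to the threshold, and 3457 genes had an unadjusted p below 0.05. In a fit without the replicate number as a block 1785 genes were called, including all 569. Without EV0S replicate 3 the test called 4908 genes, with 1959 (10.3% of all genes) above 0 and 2949 (15.4%) below 0, and these included all 569. Without EVPS replicate 3 it called 850 genes and without ABPS replicate 3 it called 583, whereas leaving out any one of the other 9 libraries left 0 genes called by limma, with 2215 to 3552 genes at an unadjusted p below 0.05. In each of these 12 fits all 569 genes kept their direction and an unadjusted p below 0.05, and all 569 had the same sign in each of the 3 repeats (41.9% of all genes did). Both follow largely from the choice of the genes by a small p in the same libraries and are no sign of stability. Among the 18520 genes that were not called, 4744 (25.6%) had a 95% interval within 0.5 of 0 on the log2 scale, and for the others these libraries set no such bound.

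By fitted sign, the effects of the peptide on the called genes were opposite at high and at low Aβ. Genes chosen for a difference of effects tend to have opposite signs, so the values below describe the calls and are no further test. Of the 453 genes above 0, 448 (98.9%) had a fitted level that was higher with the peptide at high Aβ and lower with the peptide at low Aβ, with a median change of 0.29 at high Aβ and −0.11 at low Aβ. Of the 116 genes below 0, all but 1 (99.1%) had the reverse, with a median change of −0.39 at high Aβ and 0.40 at low Aβ. Over all genes the 2 effects had opposite signs in 49.7%. EV0S was the lowest of the 4 groups in 406 of the 453 genes, and EVPS was the highest in 410. In the same genes AB0S lay above EV0S in all 453, by a median of 0.20, so the treated worms at high Aβ and the untreated worms at low Aβ both stood above the untreated worms at high Aβ. This last contrast shares its libraries with the interaction and is given as a description. Among the 116 genes AB0S lay below EV0S in every one, by a median of −0.52, with EV0S the highest group in 75 and ABPS in 41.

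The libraries of the groups overlapped less in the effect at high Aβ than at low Aβ for the genes above 0. The 3 EVPS libraries did not overlap the 3 EV0S libraries in 445 of 453 genes (98.2%), and the ABPS and AB0S libraries did not overlap in 296 (65.3%). The corresponding shares over all genes were 27.3% and 29.4%. Neither pair overlapped in 288 genes above 0 (63.6%) and in 66 genes below 0 (56.9%), compared with 6.39% of all genes. The high shares in the called genes follow largely from their choice by a small p in the same libraries and are no further test. Across all 19089 genes the effect of the peptide at high Aβ and that at low Aβ, which share no library, had a Pearson r of 0.16 and a Spearman rho of 0.13, and r was 0.19 over the 15516 genes with a mean of at least 10. These are correlations across genes, which are not independent replicates. The interactions above 0 were small, with quartiles of 0.35, 0.41 and 0.48, and those below 0 were larger, with quartiles of −1.06, −0.80 and −0.62. The median standard error was 0.09 for the genes above 0 and 0.17 for those below 0. A larger standard error requires a larger interaction for a call, and its part in this difference was not tested.

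**Figure D1:**
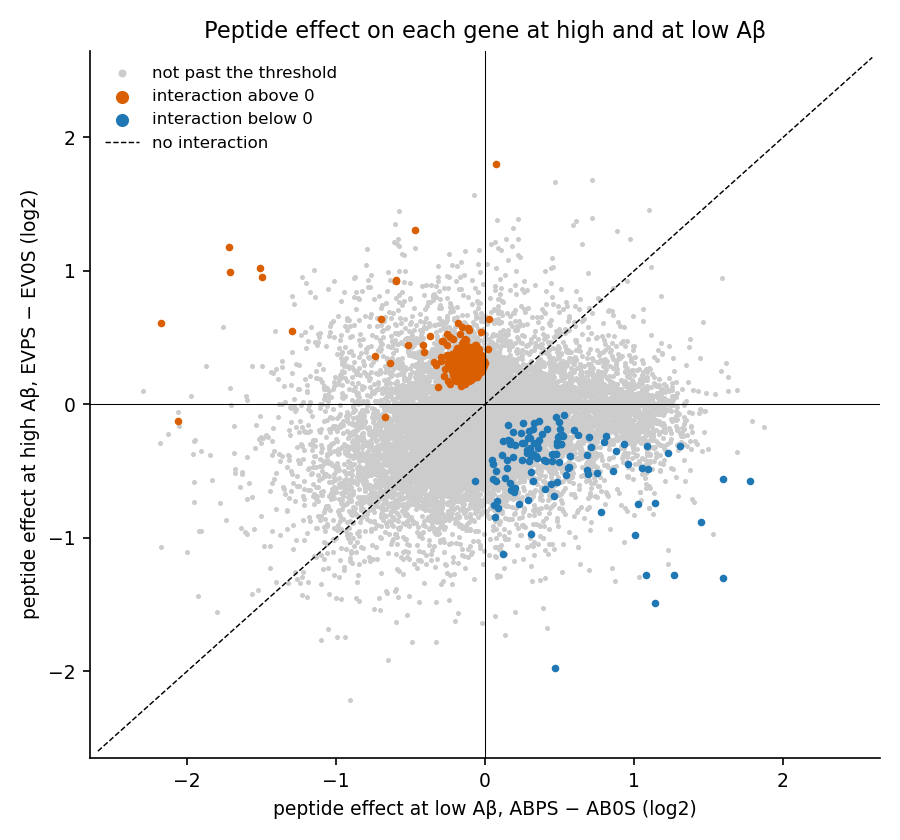
Effect of the peptide on each of 19089 genes at low Aβ (x axis, ABPS − AB0S, log2) and at high Aβ (y axis, EVPS − EV0S, log2), with 453 genes of an interaction above 0 in orange, 116 below 0 in blue and the other genes in grey. The dashed line marks equal effects, and 448 of the orange and all but 1 of the blue points lie in the quadrants where the effects have opposite signs.

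Among the genes above 0 with the smallest p-values was *cup-15*, which is named for defective uptake by coelomocytes, the scavenger cells of the body cavity (chromosome II, 9353000 to 9354327, WBcel235). Its values were 1389.7, 1460.4 and 1519 in EV0S, 1880.3, 1919 and 1824 in EVPS, 1854, 1906 and 1826 in AB0S and 1689, 1594 and 1649 in ABPS. The EV0S libraries lay below all others and the ABPS libraries lay between them and the remaining 6. The interaction was 0.54 (SE 0.08, limma adjusted p = 0.0707), made up of a change of 0.36 at high Aβ (95% interval 0.24 to 0.49) and one of −0.18 at low Aβ (−0.31 to −0.05). Y4C6A.3, a protein-coding gene without a gene-class name, had values of 719.7, 784 and 777 in EV0S, 1192, 1176 and 1041 in EVPS, 938, 952 and 972 in AB0S and 872, 839.6 and 864 in ABPS, and again EV0S was the lowest group without overlap. Its interaction was 0.73 (SE 0.10, limma adjusted p = 0.0707). The gene *dod-3*, which is named for acting downstream of the FOXO factor DAF-16, was expressed at a lower level, at 147, 128 and 117 in EV0S, 194, 186 and 234 in EVPS, 268, 229 and 276 in AB0S and 168, 171 and 137.1 in ABPS. Here both pairs of groups were separate, with the peptide group above the untreated group at high Aβ and below it at low Aβ, and the interaction was 1.33 (SE 0.20, limma adjusted p = 0.0707). The list of DAF-16 targets as a whole did not share this direction. Of its 35 measured genes 2 were called above 0 and 0 below 0 (5.71%, against 2.98% of all genes), but 21 lay below 0. Its median was −0.13, and −0.26 without EV0S replicate 3. T23B12.6, T21C9.13 and M110.3, of sequence name only, had interactions of 0.58, 0.57 and 0.48.

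A different pattern was seen in *cyp-14A3*, a cytochrome P450 gene on chromosome X (13271837 to 13274202), whose exons overlap 2 annotated genes on the other strand. It was listed at 54, 49.1 and 53.8 in EV0S, 198, 162 and 197 in EVPS, 87.3, 136 and 87.4 in AB0S and 96.9, 139 and 90.6 in ABPS. The EV0S and EVPS libraries were far apart, whereas the AB0S and ABPS libraries overlapped and shared a high replicate 2. The interaction was 1.73 (SE 0.29, limma adjusted p = 0.0707), with a change of 1.8 at high Aβ (1.34 to 2.27) and 0.08 at low Aβ (−0.39 to 0.54). The thaumatin-family gene *thn-2*, of a family linked to defence against microbes, was likewise one of the 5 genes above 0 whose effects did not differ in sign in this way. Its values were 1765, 1742 and 1605 in EV0S, 2496, 2518 and 2989 in EVPS, 2329.6, 1991 and 2182 in AB0S and 2196, 2283 and 2138 in ABPS and its interaction was 0.62 (SE 0.12, limma adjusted p = 0.0775).

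**Figure D2:**
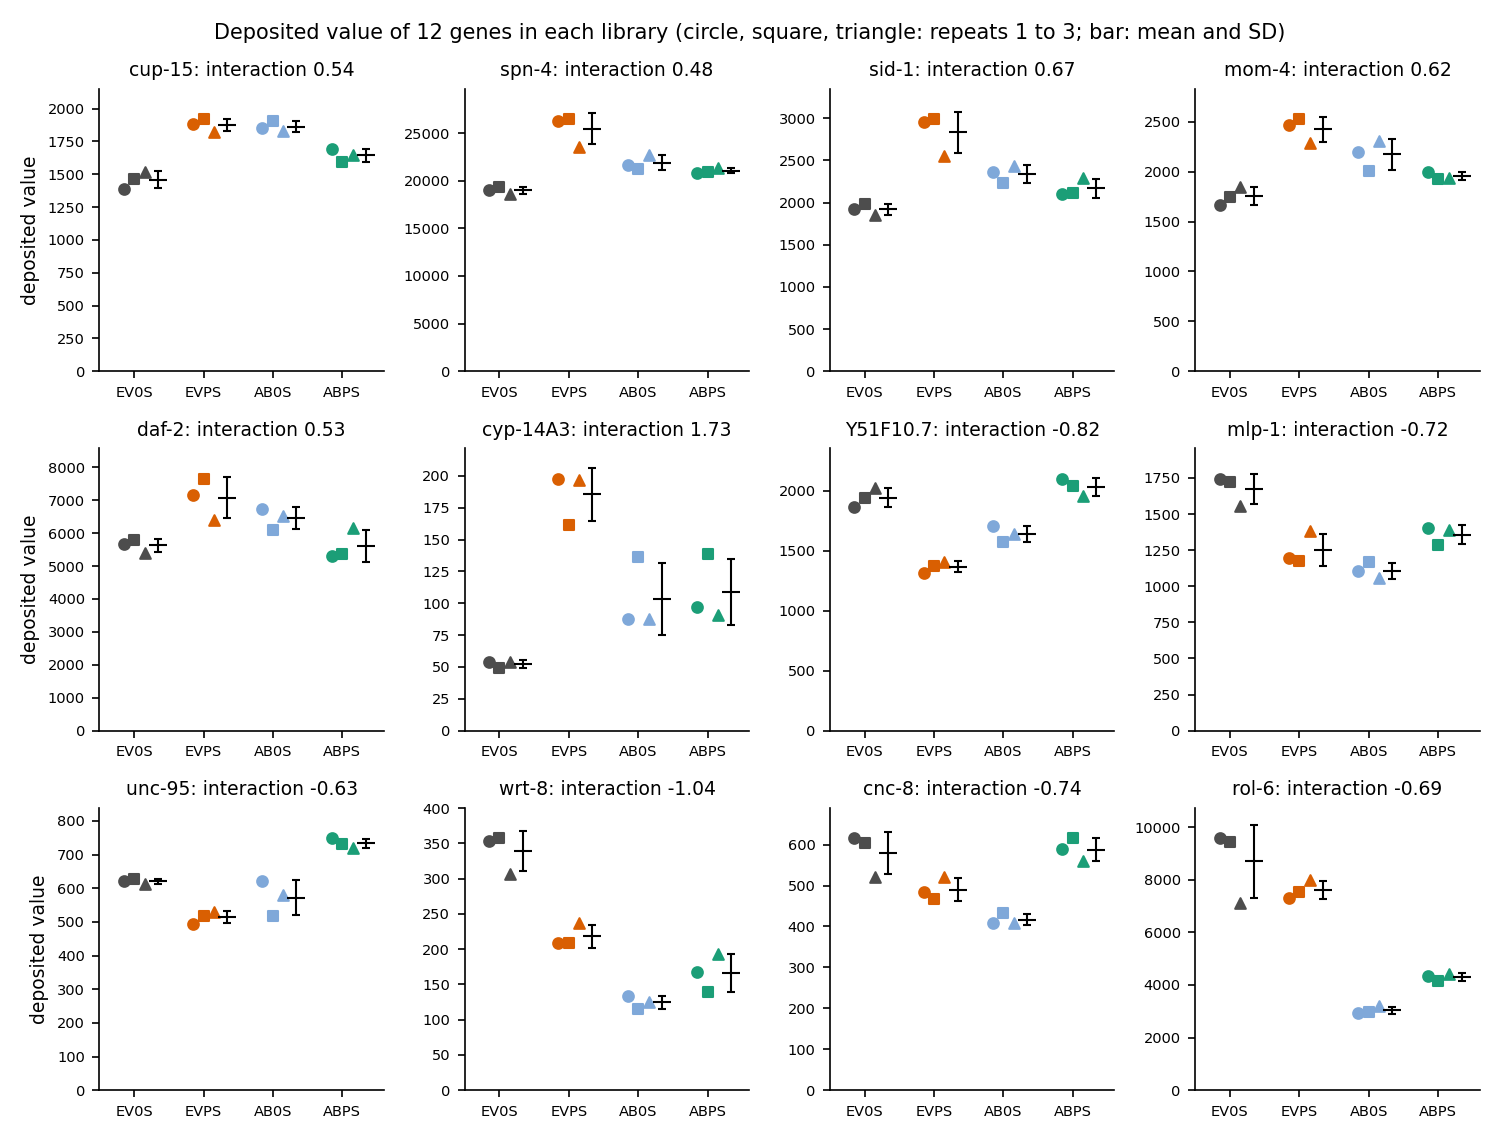
Deposited value (y axis, from 0) of 12 genes in the 3 libraries of each group, with circles, squares and triangles for repeats 1, 2 and 3 and a black bar for the mean with its SD (n = 3). The first 6 genes, with interactions from 0.48 to 1.73, have EV0S at or near the bottom, and the last 6, with interactions from −1.04 to −0.63, have EVPS below EV0S or ABPS above AB0S.

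Genes of the oocyte and maternal genes that act in the early embryo stood above 0. Markers of the zygotic embryo did not share this direction, with 5 above and 10 below 0 and 0 called. The median of these 15 markers was −0.12, and 0.14 without EV0S replicate 3. Of 31 genes listed as RNA-binding regulators of maternal mRNA, 8 were called above 0 and 0 below 0 by limma (25.8% called, against 2.98% of all genes). These 8 include *glp-1*, which encodes a receptor rather than an RNA-binding protein and is counted again in the Notch pathway below. The median of the list was 0.29 against −0.03 over all genes, and the medians of the 3 repeats were 0.22, 0.32 and 0.32. The peptide group differed from its control by a median of 0.30 at high Aβ and −0.01 at low Aβ. At an unadjusted p below 0.05, 19 of the 31 lay above 0 and 0 below. With EV0S replicate 3 left out, 15 were called above 0 and 1 below 0 and the median was 0.23, below that of lists such as the F-box genes (0.31) and the Wnt pathway (0.27). The called genes included *spn-4*, which encodes an RNA-binding protein needed for cell fates in the early embryo, at 19049, 19363 and 18589 in EV0S, 26317, 26454 and 23566 in EVPS, 21675, 21267 and 22740.4 in AB0S and 20814, 20952 and 21325 in ABPS. The EVPS libraries stood above the other 9 and the AB0S and ABPS libraries overlapped. The interaction of *spn-4* was 0.48 (SE 0.10, limma adjusted p = 0.0775), and those of *puf-6* and *puf-7*, Pumilio-family repressors of translation, were 0.39 and 0.38. The markers of the oocyte and the maternal germline, of which 4 of 21 were called above 0, all 4 being also among the 8 regulators, summed to 380928 to 473658 in EV0S, 508944 to 553829 in EVPS, 456581 to 477666 in AB0S and 458490 to 491750 in ABPS, so EVPS was separate from all other groups.

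Sperm genes went the other way, but with a spread that left none of them called. The 32 major sperm proteins, which form the cytoskeleton of the amoeboid worm sperm, had a median interaction of −1.21, with 31 below 0, 0 called by limma and 3 below 0 at an unadjusted p below 0.05, and the medians of the repeats were −2.18, −1.0 and −0.45. The change at high Aβ had a median of −0.03 and that at low Aβ of 1.18, with the larger change in the AB groups. The wider list of 66 spermatogenesis genes had a median of −0.86 with 0 called, and 1 above and 16 below 0 at an unadjusted p below 0.05. When EV0S replicate 3 was left out, 30 of the 32 major sperm proteins and 34 of the 66 spermatogenesis genes were called below 0. The median interactions of the 2 lists were then −1.84 and −1.25. In a fit with the major sperm protein level as a covariate, 1467 genes were called, 499 of them among the 569. In that fit the median moved from −0.87 to −0.38 for cuticle collagens, from −0.78 to −0.26 for body-shape collagens, from −1.10 to −0.30 for hypodermis markers and from −0.36 to −0.22 for body wall muscle genes. It moved from −0.38 to −0.19 for cytosolic ribosomal proteins, from −0.34 to −0.12 for oxidative phosphorylation genes and from −0.15 to 0.00 for proteasome subunits. The oocyte and early embryo regulators moved from 0.29 to 0.38.

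**Figure D3:**
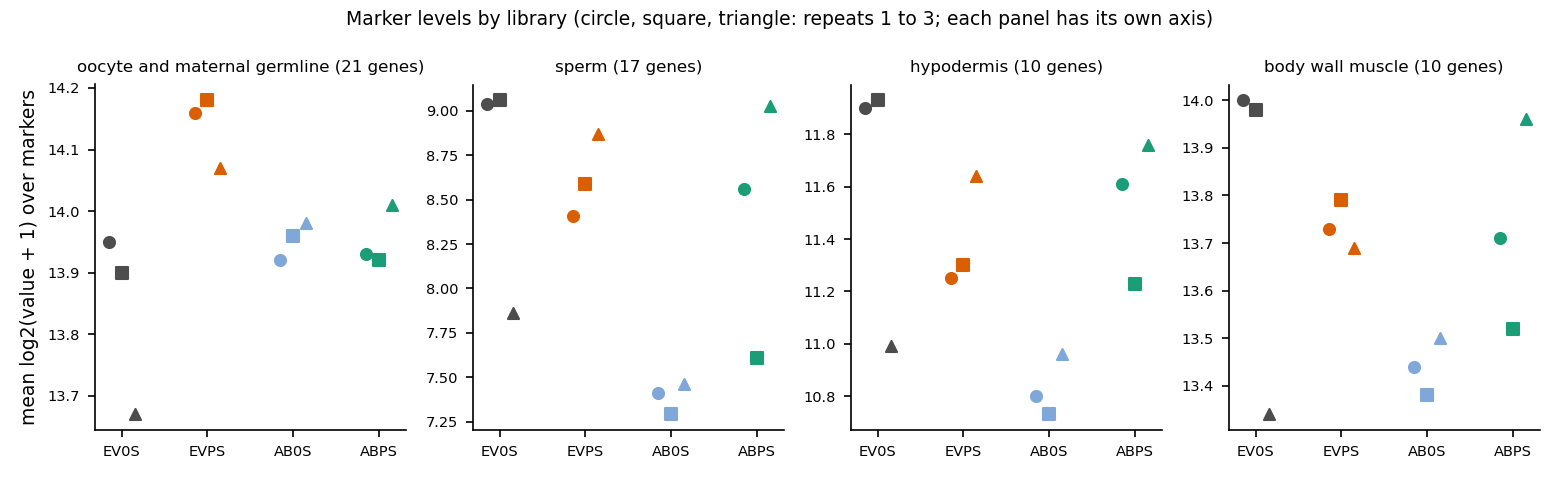
Mean log2(value + 1) over the markers of 4 cell types (y axis, each panel with its own axis) in each library, with circles, squares and triangles for repeats 1, 2 and 3. Oocyte markers are highest in EVPS (14.07 to 14.18), and in the sperm panel EV0S replicate 3 (7.86) and ABPS replicate 2 (7.61) lie with AB0S (7.29 to 7.46).

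Genes of chromosomes and the cell cycle leaned in the same direction as the oocyte list. Of 40 meiotic chromosome genes 4 (10.0%) were called above 0 with a median of 0.20. Of 61 genes of DNA replication and the cell cycle 4 (6.56%) were called above 0 with a median of 0.18. In both lists 0 were called below 0, and over all genes 2.37% were called above 0 and 0.608% below 0. Of the called members, *zim-2*, a zinc-finger protein of the meiotic pairing centres, had an interaction of 0.44, and *syp-3*, a part of the synaptonemal complex, had 0.33. The worm homologue of the retinoblastoma tumour suppressor, *lin-35*, was at 3921, 3984 and 3976 in EV0S, 4879, 5036 and 4759 in EVPS, 4922, 4867 and 4879.9 in AB0S and 4384, 4452 and 4596 in ABPS. The EV0S libraries were the lowest, the EVPS and AB0S libraries were alike, and the ABPS libraries lay between, with an interaction of 0.43 (SE 0.07, limma adjusted p = 0.0707). The condensin subunit gene *capg-2* had an interaction of 0.48 and *orc-5*, of the origin recognition complex, had 0.32. In the fit that left out EV0S replicate 3, 14 meiotic and 19 cell cycle genes were called above 0, against 10.3% of all genes. Counting each gene once, the 5 lists of oocyte, germline and cell cycle genes held 165 genes. Of these 17 (10.3%) were called above 0 and 0 below 0, and 93.9% had an interaction above 0 compared with 46.8% of all genes. Among all genes with a mean from 1000 to 10000, 7.78% were called above 0, and the part of expression level in the share of these lists was not tested.

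The 59 chromatin and small RNA regulators had a median of 0.24, with medians of 0.20, 0.25 and 0.24 in the repeats. Of them, 11 (18.6%, against 2.37% of all genes) were called above 0 and 0 below 0. Several of these act in RNAi itself, by which the low Aβ groups were made. The gene for the channel that imports double-stranded RNA into cells, *sid-1*, was at 1920.4, 1979.8 and 1854 in EV0S, 2958, 2989 and 2549.8 in EVPS, 2362, 2228 and 2429.8 in AB0S and 2101, 2109.9 and 2292 in ABPS. Its EVPS libraries stood above all others and its EV0S libraries below them, with an interaction of 0.67 (SE 0.11, limma adjusted p = 0.0707). The RNA-dependent RNA polymerase gene *rrf-1*, which makes secondary small RNAs in the soma, had an interaction of 0.48, and *mes-3*, of the worm Polycomb complex that methylates histone H3, had 0.43. Once EV0S replicate 3 was removed, 22 genes of the list were called above 0 and 3 below 0. DNA repair genes formed a list that was drawn up after the values had been seen and is given as a description, with 14 of 55 called above 0, 0 below 0 and a median of 0.26, and 25 above 0 and 0 below 0 without EV0S replicate 3. Its member with the smallest p was *polk-1*, for the translesion polymerase kappa, at 2182, 2173 and 2094 in EV0S, 3014, 2948 and 2694 in EVPS, 2587, 2559 and 2638 in AB0S and 2226, 2170.1 and 2459 in ABPS, with an interaction of 0.61 (SE 0.09, limma adjusted p = 0.0707). Its exons overlap a gene on the other strand.

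Receptors and transducers of conserved signaling pathways were also among the genes above 0. The median of 29 Wnt pathway genes was 0.12, from a median change of −0.01 at high and −0.14 at low Aβ. For comparison, 2.37% of all genes were called above 0, and 7.78% of genes with a mean from 1000 to 10000. Of the 29 Wnt genes 5 (17.2%) were called above 0 and 0 below. They covered the ligand gene *mom-2* (0.36), the Frizzled receptor gene *mom-5* (0.45), the Dishevelled gene *mig-5* (0.29), the beta-catenin gene *wrm-1* (0.48) and the kinase gene *mom-4* (0.62), several of which act in the early embryo. In *mom-4* the libraries were at 1668, 1750.4 and 1843 in EV0S, 2465, 2525 and 2282 in EVPS, 2200.2, 2005 and 2311 in AB0S and 1997, 1926 and 1934 in ABPS. The EV0S libraries were separate from EVPS, and the highest ABPS library lay just under the lowest AB0S library. Its interaction was 0.62 (SE 0.10, limma adjusted p = 0.0707). In the Notch pathway 3 of 30 genes (10.0%) were called, all above 0, namely the presenilin gene *hop-1* (0.42), the transcription factor gene *lag-1* (0.33) and the germline receptor gene *glp-1* (0.55). Without EV0S replicate 3, 10 Wnt and 9 Notch genes were called above 0, and 1 and 3 below 0, against 10.3% of all genes above and 15.4% below.

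The insulin/IGF and TOR pathways, which link nutrients to growth and lifespan, contained further members. The insulin/IGF receptor gene *daf-2* (chromosome III, 2994514 to 3040846) was at 5678, 5796 and 5403 in EV0S, 7159, 7652 and 6409.7 in EVPS, 6741, 6089 and 6526 in AB0S and 5314, 5353 and 6160.5 in ABPS. EVPS replicate 3 was the lowest of the treated libraries at high Aβ and the ABPS libraries were spread widely, and the interaction was 0.53 (SE 0.12, limma adjusted p = 0.0865). The heat shock factor gene *hsf-1*, counted in the same list, was at 3148, 3243 and 3111 in EV0S, 4031, 4165 and 3833 in EVPS, 3787, 3646 and 3891 in AB0S and 3515, 3339 and 3666 in ABPS, with EV0S below the other groups without overlap, and its interaction was 0.45 (SE 0.08, limma adjusted p = 0.0772). Of the 23 genes of this list, 3 were called above 0 and 0 below 0. Of 26 TOR pathway genes 3 were called above 0 and 0 below, namely *rict-1* (0.51) of TOR complex 2, the TEL2 homologue *clk-2* (0.37) and the folliculin gene *flcn-1* (0.49). The TOR kinase gene *let-363* was not called, at an interaction of 0.24 (95% interval −0.08 to 0.57). The counts of both lists are to be read against 2.37% of all genes called above 0 and 0.608% called below 0. Among all genes with a mean from 1000 to 10000, 7.78% were called above 0. The part of expression level in the counts of these lists was not tested. Medians were 0.16 for insulin/IGF and 0.18 for TOR. Without EV0S replicate 3, 8 and 10 genes were called above 0 and 1 in each list below 0, against 10.3% of all genes above and 15.4% below.

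Genes with symbols that share a stem were ranked by the share called, over 165 stems with at least 10 genes. The ced genes, named for abnormal cell death, were first with 5 of 13 (38.5%), all above 0. They included the caspase gene *ced-3* (0.41), the cell survival gene *ced-9* (0.28) and the corpse engulfment genes *ced-1* (0.35), *ced-5* (0.59) and *ced-12* (0.29). In *ced-5*, whose product with that of *ced-12* activates the Rac GTPase, the values were 3997, 4194 and 3482 in EV0S, 5267, 5473 and 4833 in EVPS, 4713, 4202 and 4803 in AB0S and 3989, 3765 and 4387 in ABPS. The EV0S and EVPS libraries were separate, and the AB0S and ABPS libraries overlapped. The wdr genes, with WD repeats, followed with 3 of 11, the puf genes with 2 of 10 and the cdc genes with 3 of 16, and all of these lay above 0. Because this ranking was made from the calls it carries no test.

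The gene with the smallest p of all was Y51F10.7 on chromosome I (1911684 to 1913935), a protein-coding gene of sequence name only. It was at 1864, 1939.5 and 2026 in EV0S, 1316, 1376 and 1409 in EVPS, 1704, 1575 and 1636 in AB0S and 2100.1, 2041 and 1956 in ABPS. EVPS was the lowest group, AB0S came next and both pairs were separate, so the gene was lower with the peptide at high Aβ and higher with it at low Aβ. The interaction was −0.82 (SE 0.09, limma adjusted p = 0.0545), and it was −0.80, −0.87 and −0.78 in the 3 repeats. C15F1.1, C05D9.3 and T01D1.4 had −0.80, −0.63 and −0.59. The antimicrobial peptide gene *cnc-8*, which belongs to the caenacin family of the epidermis, was at 616, 603 and 522 in EV0S, 484, 466 and 521 in EVPS, 409, 432 and 407 in AB0S and 588, 616 and 559.5 in ABPS. Its ABPS libraries stood above AB0S without overlap and the EVPS libraries below EV0S by a narrow margin, with an interaction of −0.74 (SE 0.12, limma adjusted p = 0.0707). The long noncoding RNA gene *lep-5*, which acts in the timing of larval development, was at 2505, 2598 and 2698 in EV0S, 1841, 1889.6 and 2081 in EVPS, 1299, 1390.4 and 1222 in AB0S and 1848, 1447 and 1927 in ABPS. The peptide group was the lower one at high Aβ and the higher one at low Aβ without overlap, and the interaction was −0.83 (SE 0.14, limma adjusted p = 0.0707).

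Genes of the muscle and its attachments to the body wall stood below 0 more than above. Of 42 body wall muscle genes 1 was called below 0 and 0 above 0 (2.38% called, against 2.98% of all genes). However, 38 had an interaction below 0, the median was −0.36, and the medians of the repeats were −0.42, −0.49 and −0.16. The called gene was *unc-95*, for a LIM domain protein of the sites where the muscle is anchored, at 622, 627 and 612 in EV0S, 495, 519 and 529 in EVPS, 621, 517 and 579 in AB0S and 749, 731 and 719.7 in ABPS. The peptide group was the lower one at high Aβ and the higher one at low Aβ, both without overlap, and the interaction was −0.63 (SE 0.11, limma adjusted p = 0.0707). The muscle LIM protein gene *mlp-1*, not in that list, was at 1744, 1723 and 1556 in EV0S, 1193, 1176 and 1379.9 in EVPS, 1106, 1165 and 1054 in AB0S and 1404, 1283 and 1386 in ABPS, with an interaction of −0.72 (SE 0.12, limma adjusted p = 0.0707). Both pairs of groups were again separate. The co-chaperone gene *unc-23*, which is needed for the attachment of muscle to the epidermis, had −0.75. With EV0S replicate 3 left out, 30 of the 42 muscle genes were called below 0 and 1 above 0, against 15.4% and 10.3% of all genes. Markers of the body wall muscle summed to 142047 to 233701 in EV0S, 190547 to 197008 in EVPS, 142130 to 150309 in AB0S and 168050 to 217208 in ABPS, and their part in these values was not tested. The muscle myosin gene *unc-54*, whose promoter drives the transgene, was not called at −0.36 (−1.07 to 0.34), and its value in EV0S replicate 3 was 43596 against 81501 and 79388 in the other 2 EV0S libraries.

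Cuticle genes were further below 0, with a larger spread. Among 153 cuticle collagens the median was −0.87, with −1.22, −0.94 and −0.48 in the repeats, and 134 lay below 0. Of these collagens 2 were called below 0 and 1 above 0 (1.96% called, against 2.98% of all genes). The change at high Aβ had a median of −0.26 and that at low Aβ of 0.68. When EV0S replicate 3 was left out, 94 were called below 0 and 3 above 0, against 15.4% and 10.3% of all genes, and the median was −1.24. With the sperm level in the model the median was −0.38. All 20 body-shape collagens measured lay below 0, with a median of −0.78, and 1 was called, or 13 below 0 and 0 above 0 without EV0S replicate 3. This was *rol-6*, a cuticle collagen and at the same time the marker gene of the transgene array, so that reads from the array and from the gene itself could not be told apart. It was at 9579, 9440.1 and 7108 in EV0S, 7305, 7527 and 8002 in EVPS, 2949.7, 2959.6 and 3182 in AB0S and 4339.8, 4140.3 and 4410.1 in ABPS. The AB libraries lay far below the EV libraries, ABPS stood above AB0S without overlap, and EVPS lay between EV0S replicate 3 and the other EV0S libraries. The interaction was −0.69 (SE 0.15, limma adjusted p = 0.0831). Markers of the hypodermis summed to 49551 to 118692 in EV0S, 63150 to 100817 in EVPS, 50462 to 72802 in AB0S and 121812 to 123880 in ABPS, and their part in the collagen values was not tested. The called collagens *col-123* (2.71) and *col-148* (−2.33) had values under 17 in every library, where the pseudocount weighs on the size of the change.

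Hedgehog-related genes, transthyretin-related genes and lipases added further members below 0. Of 83 hedgehog-related and patched-related genes, which in worms serve mostly in the epidermis, 3 were called below 0 and 1 above 0 (4.82%), with a median of −0.34. Of these *wrt-8*, which encodes a secreted protein with a hedgehog-type autoprocessing domain, was at 354, 357 and 307 in EV0S, 209, 209 and 237 in EVPS, 134, 116 and 124 in AB0S and 167, 139 and 193 in ABPS. All 4 groups were separate, with EV0S highest and AB0S lowest, and the interaction was −1.04 (SE 0.18, limma adjusted p = 0.0707). The other 2 below 0 were *hog-1* (−0.98) and *ptr-1* (−0.45), and the gene above 0 was the low-level pseudogene *grl-32*. Of 57 transthyretin-related genes 3 were called below 0 and 0 above 0 (5.26%), with a median of −0.40. Among 103 lipid metabolism genes the lipase genes *lips-17* (−0.94) and *lipl-5* (−0.82) were called below 0, and 0 were called above 0 (1.94%). Over all genes 2.98% were called. The values of *lipl-5*, for a lysosomal-type lipase, were 2281, 2371 and 2762 in EV0S, 1286, 1468 and 1639 in EVPS, 2149.6, 1635 and 1904 in AB0S and 2072, 1598 and 2291 in ABPS, so its AB groups overlapped and its EV groups did not. The fungus-induced peptide related gene *fipr-13* was at 69.2, 72.7 and 84 in EV0S, 34.4, 35 and 43.8 in EVPS, 27.5, 36.6 and 26.8 in AB0S and 73.4, 40.7 and 77 in ABPS, with an interaction of −1.99 (SE 0.36, limma adjusted p = 0.0713). In the fit that left out EV0S replicate 3, 29 hedgehog-related, 17 transthyretin-related and 47 lipid metabolism genes were called below 0 and 1, 0 and 8 above 0, against 15.4% of all genes below and 10.3% above.

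Protein homeostasis genes were called in both directions or not at all. In the proteasome, the main protease for ubiquitin-tagged proteins, 0 of 33 subunits were called by limma, 0 had an unadjusted p below 0.05, 32 had an interaction below 0, and the median was −0.15 with −0.40, −0.27 and 0.23 in the repeats. In the heat shock protein list 0 of 24 were called by limma and 7 lay below 0 at an unadjusted p below 0.05, with a median of −0.23. Of 50 co-chaperone, chaperonin and prefoldin genes, the J-domain genes *dnj-24* (−0.57) and *dnj-8* (0.32) and the gene *unc-23* were called (6.0% against 2.98% of all genes), and 7 were called above and 16 below 0 without EV0S replicate 3. Of 17 genes of transcellular chaperone signaling, by which one tissue alters chaperone levels in another, 0 were called by limma and 2 had an unadjusted p below 0.05 (1 in each direction), with a median of −0.05 that became 0.01 with TMM factors. Its member *txt-13* was at 73.1, 67.8 and 68.9 in EV0S, 38.4, 44.7 and 50.3 in EVPS, 65.9, 73.8 and 60.5 in AB0S and 69.7, 69.7 and 63.3 in ABPS. The EVPS libraries lay below the 9 others, which overlapped, but the interaction of −0.67 (95% interval −1.19 to −0.14) had an adjusted p of 0.188 in limma. Among autophagy and lysosome genes 3 of 64 were called above 0 and 0 below 0, namely *atg-18* (0.39), *cup-5* (0.36) and *epg-4* (0.52), which is 4.69% of the list. Once EV0S replicate 3 was removed, 23 proteasome and 15 heat shock protein genes were called below 0 and 0 above 0, and 14 autophagy and lysosome genes were called above and 26 below.

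Ribosomal and mitochondrial genes shared one direction with no call. All 81 cytosolic ribosomal protein genes had an interaction below 0, with a median of −0.38, but the medians of the repeats were −0.68, −0.54 and 0.08, and limma called 0, with 50 at an unadjusted p below 0.05. The 51 oxidative phosphorylation genes had a median of −0.34, with 49 below 0, 0 called, 21 below 0 at an unadjusted p below 0.05, and a median of 0.08 in the third repeat. The 12 genes of the mitochondrial genome had a median of −0.52 with 0 called and 1 at an unadjusted p below 0.05. Without EV0S replicate 3, 80 of the 81 ribosomal and 46 of the 51 oxidative phosphorylation genes were called below 0. The largest gene families tested, 358 F-box genes, 258 nuclear hormone receptor genes and 196 C-type lectins, had 4, 3 and 1 called genes, in each case a smaller share of the list than the 2.98% of all genes. Their medians were 0.05, 0.00 and −0.07, and under quantile normalization they were 0.19, 0.13 and 0.02. These values turned on single libraries, as over the fits that left out 1 library the medians ran from −0.09 to 0.31 for F-box genes, from −0.11 to 0.12 for nuclear hormone receptors and from −0.14 to −0.02 for C-type lectins. The F-box value of 0.31 and the nuclear hormone receptor value of 0.12 were those without EV0S replicate 3, where 37, 22 and 13 genes were called above 0 and 3, 7 and 32 below 0. Among F-box genes, which bring substrates to ubiquitin ligases, *fbxa-215* had the smallest p, with 0.46. The nuclear hormone receptor gene *nhr-181* had 0.76 and the F-box pseudogene *fbxa-123* had 0.70, whereas *fbxa-218* was not called at 0.94 (0.11 to 1.78).

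**Figure D4:**
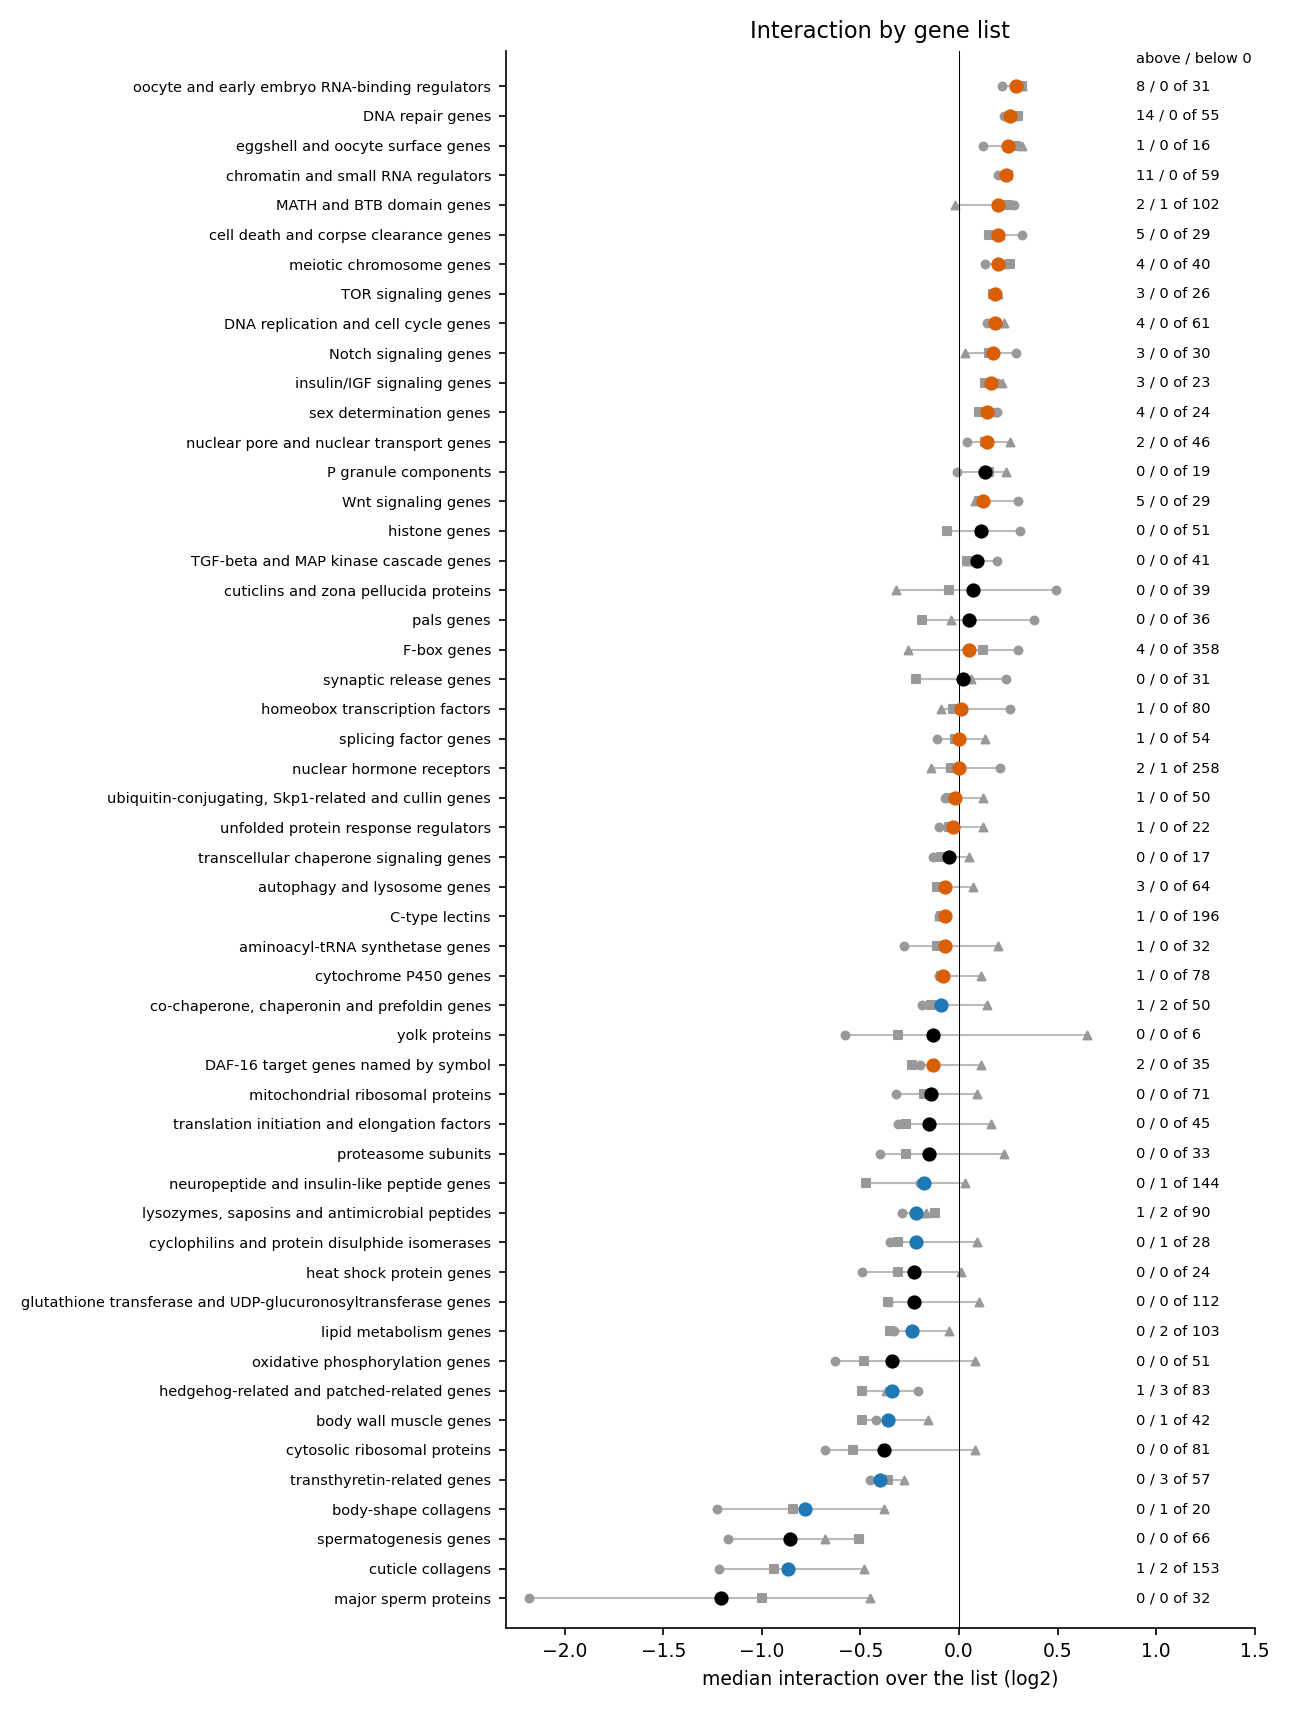
Median interaction (x axis, log2) of 52 gene lists, 3 of them drawn up after the values had been seen, as a large point (orange or blue where more members were called above or below 0, black where neither) with the medians of repeats 1, 2 and 3 as small circles, squares and triangles. The numbers at the right are genes called above 0, called below 0 and measured, and in this fit the lists run from 0.29 for the oocyte and early embryo RNA-binding regulators to −1.21 for the major sperm proteins.

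The called genes were unevenly placed on the chromosomes and unevenly expressed. On chromosome X, which is silent in much of the germline, 9 of 2657 genes (0.339%) were called above 0, compared with 444 of 16416 autosomal genes (2.70%), and 28 (1.05%) were called below 0, compared with 88 (0.536%). Chromosome I had the highest share above 0, at 4.21%. The mean value of the genes above 0 had a median of 2188 and that of the genes below 0 of 357.8, against 136.8 for all genes. Of the 4589 genes with a mean from 1000 to 10000, 357 (7.78%) were called above 0 and 23 (0.501%) below 0, and the median standard error in this range was 0.10 compared with 0.41 for means from 10 to 100. The median exon length was 1912 bases above 0 and 932 below 0, against 1230 for all genes, and with a trend in exon length removed 280 genes were called, 236 of them among the 569. Exons of another gene on the opposite strand overlapped 135 (29.8%) of the genes above 0 and 30 (25.9%) of those below 0, compared with 23.8% of all genes, and the values of such genes are uncertain since the strand setting of the counting is not given in the sources used here. Of the genes given above library by library, *spn-4*, *lin-35*, *polk-1*, *ced-5* and *cyp-14A3* are among them, and *mom-4* overlaps a gene on its own strand.

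**Figure D5:**
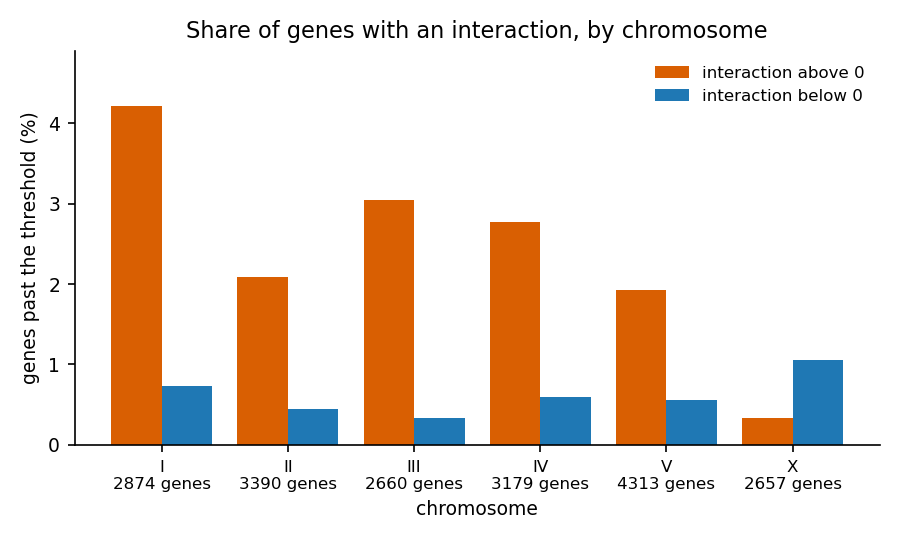
Share of the genes of each chromosome (y axis, percent) with an interaction above 0 (orange) or below 0 (blue). Chromosome X is the only one of the 6 on which the blue bar (1.05%) is higher than the orange one (0.339%).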

How the data were processed

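Polyadenylated RNA from pools of whole CL2006 worms was sequenced as single-end reads, with 12 libraries in 4 groups of 3. According to the study's methods and the submitters' processing notes, the authors trimmed the reads with cutadapt 2.10, aligned them to WBcel235 with TopHat2 2.1.1, counted reads per gene with HTSeq 2.01 and normalized the counts with DESeq2 1.36.0. The deposited values are a score on a linear scale, that is, DESeq2-normalized counts from which the authors had removed the effect of the 3 repeats, so they are scaled for depth by size factors and are no longer whole reads, no count test was run, and the sequencing depth itself is unknown. Of 229068 values 307 were below 0, with a lowest of -0.64, and were set to 0. The removal of the repeat effect by the authors can shift single libraries.

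The log2(value + 1) of all genes was fitted with limma 3.58.1 (R 4.3.3; lmFit, then eBayes with a trend), with group and replicate number as terms (6 residual degrees of freedom), and p-values were adjusted over 19089 genes by the Benjamini-Hochberg method and called below 0.1. The replicate number, which the study's methods tie to 3 independent repeats of the biological procedure, was kept as a block, since the removal of its effect had used those degrees of freedom, and for the same reason the deposited values no longer show how far libraries of one number deviated together. The script was tested on simulated data. Alternatives changed the pseudocount (0.1 and 5), the filter on the mean (1 and 10), the scaling (TMM, quantile), the variance model, the library weights, the replicate block, exon length and the sperm level, and left out each library. Genes named are those with the smallest p in each direction, up to 3 called members of each list in each direction (all where 5 or fewer were called), genes the study names, *unc-54* and *rol-6*, and the 8 symbol stems with the highest share called. One called gene that this rule selects is not reported here. Members, lists and tests were chosen with earlier results of these data known, and the DNA repair, sex determination and cell death lists were added after their values were seen. Gene positions and types come from Ensembl release 115 (WBcel235), which matched 19085 genes. A planned search for promoter motifs was not run, since no sequence was used here.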

Additional observations from a re-analysis of the deposited data

Results flagged for a closer look

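A difference between the groups in the effect of the peptide was tested for every gene, and 569 genes had such a difference at an adjusted p below 0.1 in limma. The called genes named in this report, above or under the other observations below, are listed here with the interaction. Each was called in 1 to 3 of the 12 fits that left out 1 library, so each of these calls was lost in at least 9 of them. All of them had the same sign in the 3 repeats.

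The called genes listed here for the germline, for chromosomes and for small RNAs were all above 0. They were *spn-4* (0.48), *puf-6* (0.39), *puf-7* (0.38), *mbk-2* (0.49), *zim-2* (0.44), *syp-3* (0.33), *lin-35* (0.43), *orc-5* (0.32), *capg-2* (0.48), *sid-1* (0.67), *rrf-1* (0.48), *mes-3* (0.43), *polk-1* (0.61), *fem-3* (0.56) and *tra-2* (0.50). In the signaling lists the genes were *mom-2* (0.36), *mom-4* (0.62), *mom-5* (0.45), *wrm-1* (0.48), *mig-5* (0.29), *hop-1* (0.42), *lag-1* (0.33), *glp-1* (0.55), *daf-2* (0.53), *hsf-1* (0.45), *rict-1* (0.51), *clk-2* (0.37) and *flcn-1* (0.49). Cell death genes were *ced-1* (0.35), *ced-3* (0.41), *ced-5* (0.59), *ced-9* (0.28) and *ced-12* (0.29). Autophagy and lysosome genes were *atg-18* (0.39), *cup-5* (0.36) and *epg-4* (0.52).

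Of other genes above 0, sequence names only were available for Y4C6A.3 (0.73), T23B12.6 (0.58), T21C9.13 (0.57) and M110.3 (0.48). The rest were *cup-15* (0.54), *dod-3* (1.33), *thn-2* (0.62), *cyp-14A3* (1.73), *fbxa-215* (0.46), *fbxa-123* (0.70), *nhr-181* (0.76), *ceh-91* (0.36), *lem-3* (0.37), *ima-1* (0.34), *ire-1* (0.40), *dnj-8* (0.32), *col-123* (2.71) and *grl-32* (2.90).

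Below 0 the muscle and attachment genes were *unc-95* (−0.63), *mlp-1* (−0.72) and *unc-23* (−0.75). Genes of the cuticle and epidermis were *rol-6* (−0.69), *col-148* (−2.33), *wrt-8* (−1.04), *hog-1* (−0.98), *ptr-1* (−0.45) and *cnc-8* (−0.74). The others were Y51F10.7 (−0.82), C15F1.1 (−0.80), C05D9.3 (−0.63), T01D1.4 (−0.59), *lep-5* (−0.83), *dnj-24* (−0.57), *lips-17* (−0.94), *lipl-5* (−0.82), *fipr-13* (−1.99) and *ins-33* (−1.36).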

How the results depend on the processing

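The direction of the 569 genes was the same under every alternative in which they were tested (553 of them with a mean of at least 10), but the number of genes past the threshold was not stable. Against 569 genes (453 above and 116 below 0), a mean of at least 10 gave 909 (710 and 199), TMM factors 1440 (1245 and 195), quantile normalization 922 (695 and 227), array weights 9332 (4468 and 4864), a fit with the major sperm protein level 1467 (1051 and 416) and removal of the exon length trend 280 (242 and 38). Array weights ranged from 0.0781 to 45.6 and their estimation did not converge. Without the variance trend and at an adjusted p below 0.05, limma called 0 genes in either direction, with 2794 and 3457 genes at an unadjusted p below 0.05. Without the replicate block 1785 genes were called (1229 above and 556 below 0), including all 569. Leaving out 1 library gave from 0 to 4908 genes in all, from 0 to 1959 above 0 and from 0 to 2949 below 0, and the cause was not tested. Without EV0S replicate 3 and ABPS replicate 2 together, an alternative added after seeing the data, 5333 genes were called (2073 and 3260). The share above 0 was 79.6% in the fit reported and 39.9% without EV0S replicate 3. Of the genes not called, *lin-44* moved from 0.20 to −0.22 and *unc-54* from −0.36 to 0.20 with the sperm level in the model, and *lin-44* was at −0.01 without EV0S replicate 1 (0.56 without EV0S replicate 3 and ABPS replicate 2). Of 1274 list medians under an alternative, 89 moved by more than the SD between repeats. The other pseudocounts, the mean filter of 1 and the robust fit kept the count within 1.5 times. With 3 libraries per group and no whole reads, the depth behind low values is unknown, and genes under a mean of 10 had a median standard error of 0.67.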

Other observations

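In the lists not described above the share called is to be read against 2.98% of all genes. Without EV0S replicate 3 the shares of all genes called were 10.3% above 0 and 15.4% below 0. Of 16 eggshell and oocyte surface genes only *mbk-2*, for a kinase that acts at the transition from oocyte to embryo, was called above 0, with 0.49, and the list's median was 0.25 with medians of 0.12, 0.29 and 0.32 in the repeats. The 19 P granule genes, for the RNA granules of the germline, had a median of 0.13 and 0 calls by limma, with 4 above 0 at an unadjusted p below 0.05, and the median was 0.03 without EV0S replicate 3 and 0.35 with the sperm level in the model. The 24 sex determination genes, a list drawn up after the values had been seen, held 4 genes called above 0 (16.7%), or 9 above and 1 below 0 without EV0S replicate 3, among them *fem-3* (0.56) and *tra-2* (0.50), which promote male and female fates respectively. The 51 histone genes had a median of 0.11 and the 6 yolk protein genes of −0.13, and limma called 0 in both, with 4 histone and 0 yolk protein genes at an unadjusted p below 0.05. For the yolk proteins, made in the intestine for the oocyte, the medians of the repeats were −0.58, −0.31 and 0.65, so they differed in sign. Without EV0S replicate 3 the calls above and below 0 were 6 and 0 for the eggshell list, 3 and 1 for P granule genes, 0 and 3 for histone genes and 0 and 3 for yolk proteins.

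Of 144 neuropeptide and insulin-like peptide genes *ins-33* (−1.36) was called below 0 and 0 above (0.694%), with a median of −0.18. Without EV0S replicate 3, 17 of the 144 were called below 0 and 0 above, where 15.4% of all genes were called below 0. Among 80 homeobox genes *ceh-91* (0.36) was called, and among 46 genes of the nuclear pore and transport *lem-3* (0.37) and *ima-1* (0.34) were called above 0, with a median of 0.14. Of 102 MATH and BTB domain genes, many of which are adaptors of ubiquitin ligases, 2 were called above 0 and 1 below 0 (2.94%), with a median of 0.20, and 17 above and 2 below 0 without EV0S replicate 3. The unfolded protein response regulators had a median of −0.03 and 1 call, *ire-1* (0.40), for the sensor of unfolded proteins in the endoplasmic reticulum. The 41 TGF-beta and MAP kinase cascade genes had 0 calls by limma, 7 genes above 0 at an unadjusted p below 0.05 and a median of 0.09. Without EV0S replicate 3 the calls above and below 0 were 10 and 0 for homeobox genes, 4 and 0 for the nuclear pore list, 2 and 8 for unfolded protein response regulators and 7 and 1 for the cascade genes. Over all genes 10.3% were called above 0 and 15.4% below 0 in that fit.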
